A study of Mus musculus with 143 samples.

Results

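Striatal RNA of zQ175 mice given HTT-10150, a small interfering RNA (siRNA) directed at the huntingtin gene Htt, was compared with that of zQ175 mice given a non-targeting siRNA, NTC. The libraries were chosen by their labelled sample group, and these 2 groups hold 16 of the 143 libraries of the series, 8 per group. Each library came from 1 mouse as the labels number them, and each group had 4 females and 4 males. All 16 animals carried the zQ175 knock-in allele, were dosed once at 6 months and were collected at 10 months of age, a schedule written 6[4]10. Untreated zQ175 mice and wild-type mice that were untreated, given NTC or given HTT-10150, 8 in each group, were collected at the same age and served as reference. The labels give neither the dose, the route of delivery, the number of copies of the allele nor the dissection batch, so p-values measure the spread between these animals only.

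Huntingtin is a large scaffold protein needed in neurons for vesicle transport and other tasks. In Huntington's disease an expanded CAG repeat in the first exon lengthens a run of glutamines in the protein, and the medium spiny neurons of the striatum, the projection neurons that use GABA, are the cells most affected. An siRNA is loaded into an Argonaute protein and guides it to a complementary messenger RNA, which is cut. The zQ175 mouse carries an expanded repeat within its own Htt gene, so every cell that uses the Htt promoter makes the mutant protein. The stretch that differs in the knock-in allele is shown here as the reference mouse genome has it, since the deposited counts include a separate entry for a mutant form of Htt. It is the first 90 bases of the coding sequence in exon 1, at chr5:34761907-34761996 on the plus strand of GRCm38 (GENCODE M21), and the run of glutamine codons is in capitals.
Htt: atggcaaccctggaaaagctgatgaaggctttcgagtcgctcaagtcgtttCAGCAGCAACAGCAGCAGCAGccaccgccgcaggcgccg
The capitals hold 7 glutamine codons, of which 6 are CAG. The sequences of HTT-10150 and NTC were not used here.

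Total counts ran from 14.66 M to 25.76 M per library over the 16 animals (median 19.62 M). Gene levels are given as CPM, counts scaled by TMM to a common library size, and ± after a level is the SD over the 8 animals of a group. All 31 listed genes of medium spiny neurons were tested, and 30 of them were above 0 in each of the 16 libraries, the exception being Gpx6. Being above 0 does not identify the tissue. All 12 markers of cortical and thalamic neurons and all 5 of blood were also above 0 in each of the 16. Some libraries stood apart. The summed level of 11 genes of choroid plexus and ependyma, the epithelia that line the ventricles, lay between 52.6 and 155.1 CPM in the 8 animals given HTT-10150. In the NTC group it lay between 57.5 and 148.7 CPM in 5 animals, and reached 830.5 in male 2, 958 in female 3 and 5509 in female 4. None of these 11 markers was at 0 in any of the 16 libraries. In the other direction, the summed level of the 31 medium spiny neuron genes was 8689 CPM in male 2 of the HTT-10150 group and between 11800 and 15420 in the other 15 animals. That animal also had the highest summed level of the 12 cortical and thalamic neuron genes, at 499.6 CPM, followed by 456.9 in NTC male 4 and by 158.5 to 327.2 in the others. Values without some or all of these 4 libraries are given beside several results, an alternative chosen after the values were seen. In tissue RNA, fewer cells of a type and less RNA per cell cannot be told apart.

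**Figure D1:**
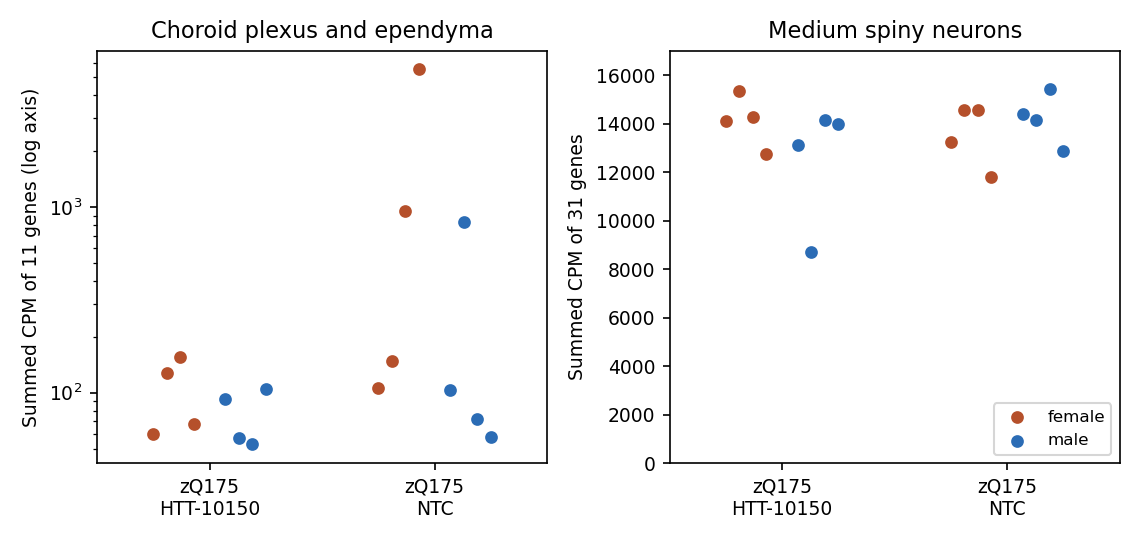
Summed CPM of the choroid plexus and ependyma genes (left, log axis) and of the medium spiny neuron genes (right, linear axis from 0), 1 point per animal, by treatment group in zQ175 6[4]10. In the left panel 3 NTC animals lie at 830.5 CPM or higher while all 8 animals given HTT-10150 lie at or below 155.1; in the right panel 1 male given HTT-10150 lies at 8689 CPM, below the other 15 animals.

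Htt, the target, was lower with HTT-10150 when tested as a single gene. Its level in the 8 animals given HTT-10150 ran from 87.1 to 120.2 CPM with a median of 106.3, and in the 8 given NTC from 111.3 to 148.3 CPM with a median of 129.7. The ranges overlapped, but 6 of the 8 treated animals lay below the lowest NTC animal and 7 of the 8 NTC animals lay above the highest treated one. The means were 105.1 ± 10.7 and 130.8 ± 10.7. By mean log2 CPM, Htt was 19.8% lower (exact two-sided permutation test on log2 CPM, n = 8 and 8, p = 0.000466, where the smallest p possible is 0.000155).

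Within each sex the 2 groups did not overlap. Females ran from 87.1 to 120.2 CPM with HTT-10150 and from 126.3 to 130.1 with NTC, and males from 100.9 to 108.4 against 111.3 to 148.3 (exact permutation p = 0.0286 in each sex, the smallest that 4 against 4 animals can give). The log2 fold changes were -0.30 in females and -0.33 in males, and their difference did not pass (edgeR, adjusted p = 0.99993). The spread sat in different places: among treated animals the females covered 33.1 CPM and the males 7.5, while among NTC animals the females covered 3.8 CPM and the males 37.0.

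In the model fitted across all genes the log2 fold change of Htt was -0.32 ± 0.08 (SE), with a 95% interval of -0.49 to -0.14. It did not pass adjustment over the 15757 genes tested (edgeR quasi-likelihood test, adjusted p = 0.60, range 0.129 to 1.0 over the alternatives). The estimate held its size without the libraries that stood apart, at -0.30 without all 4. Against untreated zQ175 animals, whose Htt was 121.9 ± 15.8 CPM, the level with HTT-10150 was 13.5% lower by mean log2 CPM (exact permutation p = 0.0402). The log2 level with NTC was 0.109 above untreated (exact permutation p = 0.236). Untreated zQ175 male 2 stood apart in the slope of its gene levels on transcript length, at -0.164. The other untreated zQ175 animals ran from -0.0262 to 0.022. The comparison with untreated animals was not made without untreated male 2. Among the animals given HTT-10150 or NTC, NTC male 1 had the lowest slope, at -0.0734. The others ran from -0.0215 to 0.0448. Without NTC male 1 the log2 fold change of Htt between HTT-10150 and NTC was -0.34.

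Wild-type mice of the same schedule gave a log2 fold change of -0.34 ± 0.08, from 157.1 ± 8.1 CPM with NTC to 124.3 ± 25.3 with HTT-10150. The effect on Htt in zQ175 minus that in wild type was 0.026 ± 0.12, which was not different from 0 (edgeR, adjusted p = 0.99979). In that wild-type group the lowest treated animal was at 78.1 CPM and the highest at 149.2, a wider spread than the 87.1 to 120.2 of the treated zQ175 animals.

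**Figure D2:**
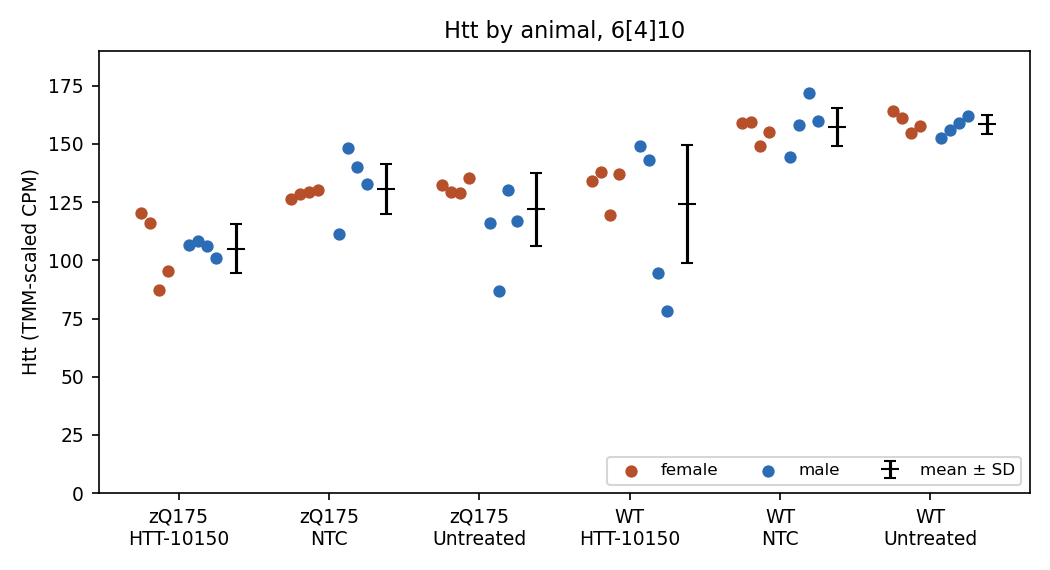
Htt in TMM-scaled CPM (linear axis from 0) for each animal of the 6 groups of 6[4]10, females and males in separate colours, with the group mean and SD as a bar at the right of each group. The zQ175 animals given HTT-10150 lie between 87.1 and 120.2 CPM, and within each sex all 4 lie below the 4 NTC animals of that sex.

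In the test over all genes, no gene passed between HTT-10150 and NTC, Htt included. Of 15757 genes tested with edgeR, 0 were called at an adjusted p under 0.05, a share of 0%, and DESeq2 also called 0, with a smallest adjusted p of 0.0831. At an unadjusted p under 0.05 edgeR listed 561 genes (3.56%), of which 195 were higher (1.24%) and 366 lower (2.32%) with HTT-10150, and DESeq2 listed 543. Without the 3 NTC libraries rich in choroid plexus genes the edgeR list shrank to 306, and without all 4 libraries that stood apart to 292. The median log2 fold change over all genes was -0.00093, and the middle 90% of genes lay between -0.22 and 0.16. The median gene's 95% interval reached 0.133 to either side of its estimate, or 0.118 for the 13288 genes with a mean log2 CPM over 1. That interval is for a gene tested alone and is no limit of detection, since Htt at -0.32 was not called.

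Among genes lower with HTT-10150, those named for the smallest unadjusted p were mostly of choroid plexus. Of the 11 genes of choroid plexus and ependyma, 0 were called, 8 were lower at an unadjusted p under 0.05 and the median log2 fold change was -2.16. Without the 3 NTC libraries named above, none of the 11 had an unadjusted p under 0.05 and the median was -0.176. Aqp1, a water channel of the choroid epithelium, ran from 0.159 to 1.18 CPM with HTT-10150 (median 0.418) and from 0.218 to 35.7 with NTC (median 0.712), and its log2 fold change of -3.25 (95% interval -4.99 to -1.51) became -0.20 without the 4 libraries. Otx2, a transcription factor that the choroid plexus requires, went from -2.16 to -0.29 in the same way, the potassium channel gene Kcnj13 from -3.84 to -0.47, the frizzled-related gene Mfrp from -2.53 to -0.022, and the bicarbonate transporter gene Slc4a5 from -3.56 to -0.047. Ttr, the transthyretin gene and the most abundant choroid transcript, is named outside the rule for named genes: its median was 33.2 CPM with HTT-10150 and 71.6 with NTC, and its highest NTC animal stood at 4985 CPM.

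Slc12a4, which encodes a potassium chloride cotransporter, had the smallest unadjusted p of the named genes that were lower. It ran from 20.04 to 26.1 CPM with HTT-10150 and from 22.9 to 46.8 with NTC, the highest being female 4. Its log2 fold change was -0.37 ± 0.09 (adjusted p = 0.60 by edgeR) and became -0.18 without the 4 libraries. Genes of fibroblasts and meninges moved with the same libraries: 3 of 10 were lower and 1 higher at an unadjusted p under 0.05, and Igf2, a growth factor made by the meninges and choroid plexus, went from -1.55 to 0.028 without the 4.

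The genes with the smallest unadjusted p among those higher with HTT-10150 did not pass. The estimates were 0.44 for 4930579G24Rik (95% interval 0.18 to 0.70, adjusted p = 0.65 by edgeR), 0.34 for the zinc finger gene Zfp879 and 0.26 for the ubiquitin ligase gene Pdzrn4, which was at 0.15 without the 4 libraries. Only 2 of the 15757 genes (0.0127%) had groups that did not overlap, and both were higher with HTT-10150. For a single gene, a share of 0.000155 of the arrangements of 8 and 8 animals does not overlap. These 2 genes thus cannot be told apart from chance. Pdf, a peptide deformylase of mitochondria, ran from 16.98 to 18.5 CPM with HTT-10150 and from 14.1 to 16.8 with NTC, for a log2 fold change of 0.18 ± 0.06 (adjusted p = 0.80 by edgeR). Rrp15, a ribosome assembly factor named after its values were seen, ran from 10.2 to 11.5 CPM against 8.97 to 10.05 (log2 fold change 0.18 ± 0.06, adjusted p = 0.83 by edgeR). Against untreated zQ175 animals, HTT-10150 differed by 0.026 for Pdf and 0.028 for Rrp15, and NTC by -0.15 for each.

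Sema4d, a semaphorin that signals through plexin receptors, ran from 45.3 to 62.6 CPM with HTT-10150 and from 39.8 to 53.9 with NTC (log2 fold change 0.18 ± 0.06). Ptgs1, the cyclooxygenase expressed in microglia, ran from 15.1 to 19.8 against 12.99 to 16.99 CPM (0.20 ± 0.06), and Abcb10, a transporter of the inner mitochondrial membrane, from 33.99 to 41.8 against 33.2 to 36.4 CPM (0.12 ± 0.04). The groups overlapped for each of these genes, and none passed (adjusted p between 0.65 and 0.73 by edgeR). Adprm, a phosphatase of ADP-ribose, was at 0.17 ± 0.05 and the transfer RNA methyltransferase gene Trmt13 at 0.23, with adjusted p of 0.65 and 0.66 by edgeR.

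Over all 33 gene lists 0 members were called. The lists held 508 genes found in the table, of which 497 were tested, and 9 were higher and 15 lower at an unadjusted p under 0.05, 4.83% against the 3.56% of all genes. No member had an unadjusted p under 0.05 in 24 of the lists. The median log2 fold change lay within 0.1 of 0 in 30 lists, the exceptions being choroid plexus and ependyma, cortical and thalamic neurons (0.277) and blood (-0.108).

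**Figure D3:**
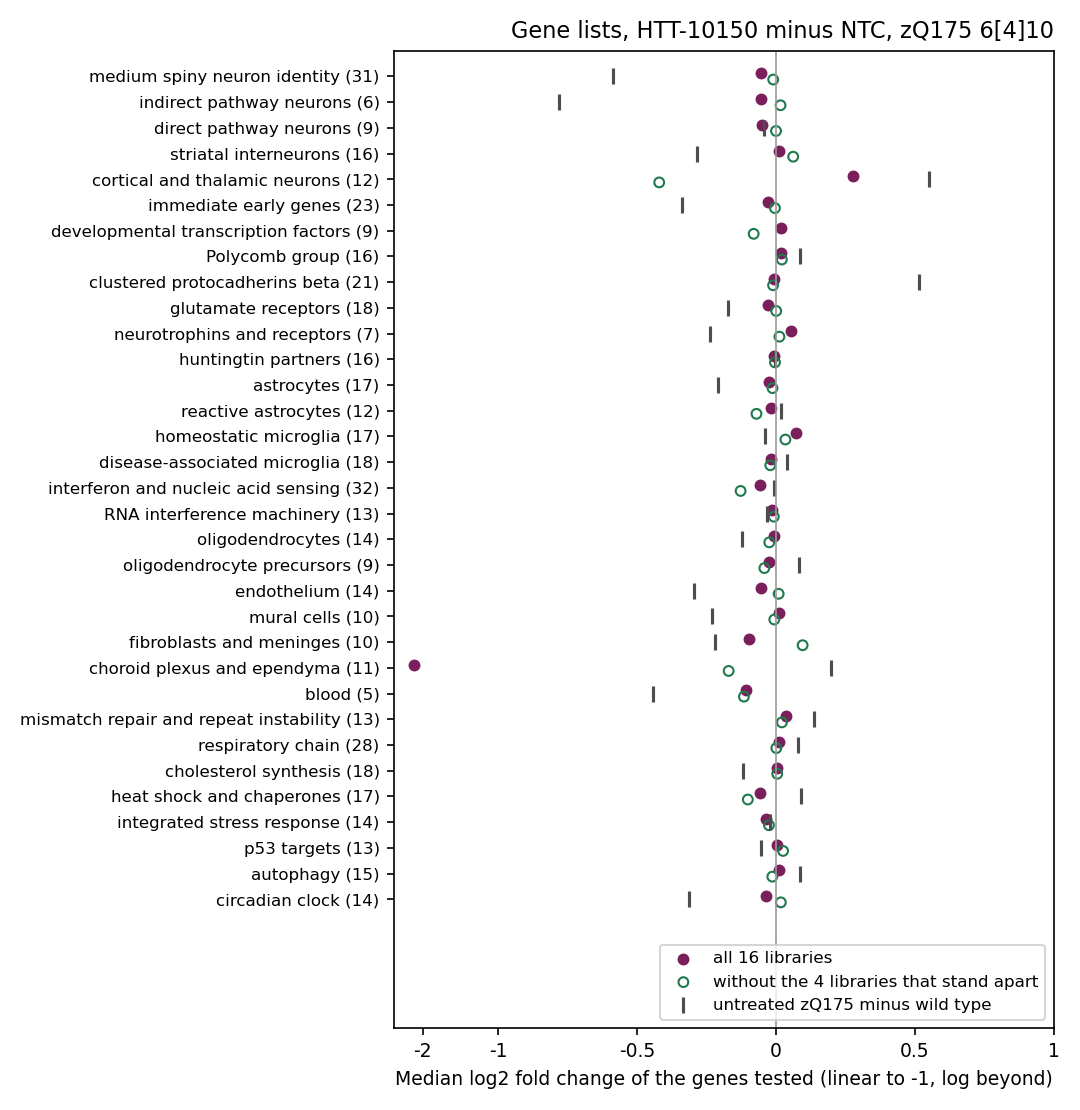
Median log2 fold change of the tested genes of each list (number tested in brackets) for HTT-10150 minus NTC in zQ175 6[4]10, with all 16 libraries (filled) and without the 4 that stood apart (open), beside the median for untreated zQ175 minus wild type (bars). The axis is linear to -1 and logarithmic beyond; the bar of the developmental transcription factors is left out because wild-type libraries hold zeros. Most filled points lie within 0.1 of 0, and the choroid plexus point moves from -2.16 to -0.17 without the 4 libraries.

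Genes of medium spiny neurons did not pass in either direction. Of 31 tested, 0 had an unadjusted p under 0.05, and 28 had a fold change below 0, with a median log2 fold change of -0.053. Without male 2 of the HTT-10150 group the median was 0.0176. Penk, which encodes the enkephalin precursor, ran from 270.9 to 543.0 CPM with HTT-10150 (median 487.0) and from 437.3 to 527.0 with NTC (median 483.1), the lowest value being that of male 2. Pde10a, a phosphodiesterase of these neurons, had medians of 826.5 and 835.3 CPM, Ppp1r1b, which encodes DARPP-32, 1508 and 1616, and the adenosine receptor gene Adora2a 220.4 and 211.1, with HTT-10150 and NTC in that order. The dopamine receptor gene Drd2 had medians of 106.5 against 113.2 CPM. Drd1 ran from 68.3 to 168.9 CPM with HTT-10150, and its lowest NTC animal was at 133.9. The log2 fold changes of these genes lay between -0.11 (Ppp1r1b) and -0.029 (Pde10a), and Pdyn, the dynorphin precursor, was at -0.13 and Tac1, the substance P precursor, at -0.048. Without the 4 libraries the 8 genes lay between -0.043 (Ppp1r1b) and 0.057 (Adora2a). The 6 tested genes of the indirect pathway had a median of -0.054 and the 9 of the direct pathway of -0.051, and these became 0.017 and 0.00046 without the 4 libraries.

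The 12 genes of cortical and thalamic neurons had the highest median of any list. None had an unadjusted p under 0.05, 11 were above 0 and the median was 0.277, which turned to -0.122 without HTT-10150 male 2 and to -0.420 without all 4 libraries. Neurod2, a transcription factor of cortical projection neurons, had medians of 4.92 and 4.84 CPM and its highest animal in the HTT-10150 group at 41.4.

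Most genes of homeostatic microglia had a fold change above 0, and none passed. Of 17 tested, 0 were called, 16 were above 0 and 3 were higher at an unadjusted p under 0.05, with a median log2 fold change of 0.072 against -0.00093 over all genes. Fcrls, a microglial Fc receptor-like gene, ran from 18.8 to 24.5 CPM with HTT-10150 (median 22.1) and from 15.3 to 22.1 with NTC (median 17.5), for a log2 fold change of 0.27 ± 0.08 (95% interval 0.11 to 0.42, adjusted p = 0.65 by edgeR). Olfml3, an extracellular protein of microglia, ran from 20.4 to 23.4 against 16.6 to 21.1 CPM (0.20 ± 0.07), and Itgam, the CD11b subunit of the complement receptor, from 27.97 to 35.4 against 24.04 to 32.6 CPM (0.16 ± 0.07). Itgam is named outside the rule for named genes. The groups overlapped for all 3 genes. In wild-type mice of the same schedule the list median was 0.0826, with Fcrls at 0.243 and Olfml3 at 0.239. Neither gene passed there (adjusted p = 0.99955 for each by edgeR). Against untreated zQ175 animals, NTC was at -0.21 for Fcrls and -0.11 for Olfml3, and HTT-10150 at 0.059 and 0.090. The median summed level of the list was 713.6 CPM with HTT-10150, 672.7 with NTC and 696 in untreated zQ175 animals. The summed level of the list was lowest in NTC female 4, at 553.1 CPM, and without the 4 libraries the median was 0.034 and 1 member had an unadjusted p under 0.05. Aif1, another microglial marker, was at 3.88 ± 0.41 CPM with HTT-10150 and 4.02 ± 0.40 with NTC.

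Lists of gliosis and innate sensing did not pass. Of 12 reactive astrocyte genes tested, 2 were higher and 1 lower at an unadjusted p under 0.05: Cd44, a hyaluronan receptor, at 0.30 ± 0.11, the serine protease inhibitor gene Serpina3n at 0.28 ± 0.14, and the ferroxidase gene Cp at -0.16. Without the 4 libraries 0 of the 12 were at that threshold, Cd44 was at 0.25, Cp at -0.081, and the median of the list went from -0.019 to -0.070. Serpina3n, named outside the rule, was at -0.16 in females and 0.68 in males, a difference that did not pass (adjusted p = 0.99993 by edgeR). Gfap, the intermediate filament of astrocytes, ran from 156.1 to 291.0 CPM with HTT-10150 and from 87.3 to 273.5 with NTC (log2 fold change 0.095 ± 0.18). Of 32 interferon and nucleic acid sensing genes, 0 were higher and 1, Ifi27, was lower at an unadjusted p under 0.05 (-0.25), and the median was -0.056. Without the 4 libraries Ifi27 was at -0.12, 2 genes were lower at that threshold and the median was -0.127. Of 18 genes of disease-associated microglia, 0 were at that threshold and the median was -0.019. The 13 genes of the RNA interference machinery, on which an siRNA depends, had a median of -0.013, with Tarbp2, a partner of Dicer, at -0.088 and Tnrc6a at -0.046.

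Lists tied to huntingtin itself lay close to 0. The 16 huntingtin partners had a median log2 fold change of -0.0054 and a range from -0.033 (Optn) to 0.047 (Zdhhc17, a palmitoyltransferase that binds huntingtin). All 13 genes of mismatch repair and repeat instability had a fold change above 0, none at an unadjusted p under 0.05, with a median of 0.037. Autophagy genes had a median of 0.012, chaperones of -0.057 (-0.101 without the 4 libraries) and the respiratory chain of 0.010. Among 16 Polycomb genes, Ezh1, a histone methyltransferase, was the 1 at an unadjusted p under 0.05 and ran from 71.9 to 77.9 CPM with HTT-10150 against 67.1 to 73.01 with NTC (0.095 ± 0.032, adjusted p = 0.83 by edgeR). In the remaining lists with such a gene, Pcdhb6 of the protocadherin beta cluster was at -0.26, Asns, an asparagine synthetase of the integrated stress response, at 0.080, and the p53 targets Eda2r and Perp at 0.46 and -0.35. Without the 4 libraries Perp was at 0.028, Eda2r at 0.41 and Asns at 0.047, none of them at that threshold, and Pcdhb6 was at -0.28.

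Whether HTT-10150 moved zQ175 animals along the difference between genotypes was addressed with the genes that differ without treatment. Between untreated zQ175 and untreated wild-type mice of 6[4]10, 5691 of 15757 genes were called (36.1%), 3018 higher and 2673 lower, and these 16 animals took no part in the siRNA comparison. Leaving out Htt, a score was formed for each animal as the mean log2 CPM of the genes higher in zQ175 minus that of the genes lower in zQ175. The score was 0.177 ± 0.11 with HTT-10150 and 0.147 ± 0.042 with NTC in zQ175 (difference 0.030, n = 8 and 8, exact two-sided permutation p = 0.652). In wild-type animals it was -0.432 ± 0.037 with HTT-10150 and -0.427 ± 0.049 with NTC, so the zQ175 and wild-type NTC groups lay 0.573 apart. Among the untreated animals that chose the genes, zQ175 male 2 scored 0.358 and the other zQ175 animals 0.1315 to 0.226. The highest score of the 16 zQ175 animals was 0.443 in HTT-10150 male 2, the animal low in medium spiny neuron genes. The other 7 treated animals ran from 0.086 to 0.164, within the NTC range of 0.080 to 0.224, and the difference without male 2 was -0.0078 (exact permutation p = 0.693).

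**Figure D4:**
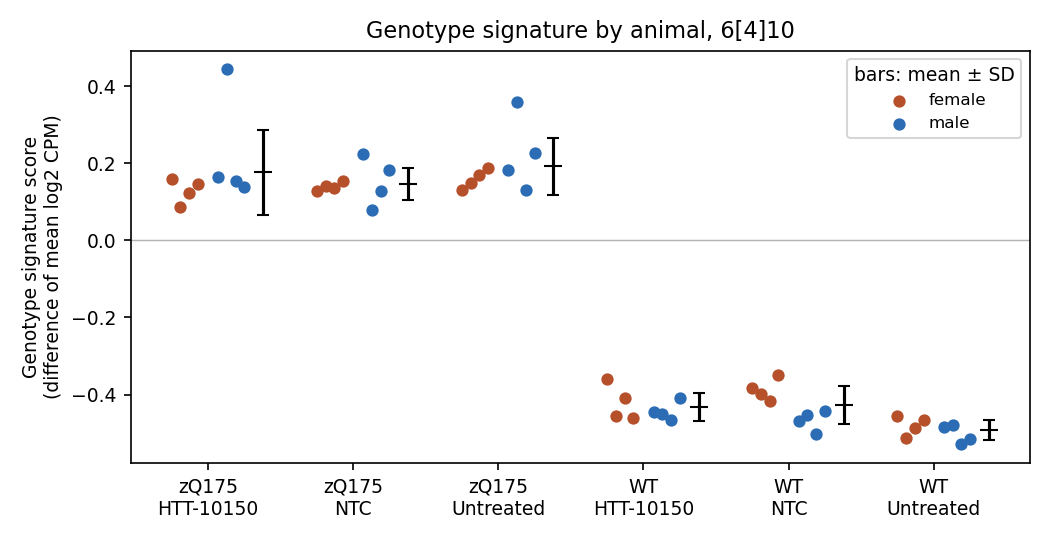
Genotype signature score (difference of mean log2 CPM, high where an animal resembles untreated zQ175) for each animal of the 6 groups of 6[4]10, with the group mean and SD as a bar. The zQ175 animals given HTT-10150 overlap those given NTC, apart from 1 male at 0.443, and all zQ175 animals lie above all wild-type animals. The genes were chosen for a difference between the untreated groups, so the separation of the untreated animals was fixed by that choice.

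Gene by gene, the same sets stayed near 0 under HTT-10150. Of the 3018 genes higher in untreated zQ175, 0 were called, 60 were higher and 19 lower at an unadjusted p under 0.05, and the median log2 fold change was 0.0097. Of the 2672 genes lower in untreated zQ175, 0 were called, 17 were higher and 62 lower, and the median was -0.0145. Without HTT-10150 male 2 these counts were 29 and 38 for the first set and 33 and 36 for the second, with medians of -0.002 and 0.0037.

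The genes with the largest genotype differences had overlapping levels with HTT-10150 and with NTC. Onecut1, a homeodomain factor of development that is nearly silent in the adult wild-type striatum, was at 0.063 ± 0.076 CPM in untreated wild type, and at 5.69 ± 0.82 with HTT-10150 and 5.66 ± 1.33 with NTC in zQ175. Wt1, another developmental transcription factor, was at 0.163 ± 0.091, 5.52 ± 0.91 and 5.32 ± 1.31 CPM in the same order. Hoxc4, a homeobox gene, was at 0 in all 8 untreated wild-type libraries and ran from 1.62 to 7.12 CPM with HTT-10150 and from 2.89 to 5.79 with NTC. Shox2 was at 10.4 ± 1.2 CPM with NTC and reached 40.7 in 1 animal given HTT-10150 around a median of 10.6. Of the 8 genes named for the largest rise in untreated zQ175, Dsp, which encodes the junction protein desmoplakin, had the lowest fold change, -0.51 (95% interval -1.01 to -0.0036, adjusted p = 0.99989 by edgeR), and was at -0.13 without the 4 libraries.

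Among genes that are low in zQ175, Ryr1, a calcium release channel, was at 112 ± 10.5 CPM in untreated wild type, 18.9 ± 3.2 with HTT-10150 and 18.5 ± 2.9 with NTC. Its log2 fold change under HTT-10150 was 0.022 with a 95% interval of -0.17 to 0.21, against a genotype difference of -2.68, and it was 0.15 without the 4 libraries. Ddit4l, a regulator of mTOR signalling, was at 25.7 ± 2.3, 5.17 ± 0.80 and 4.80 ± 0.71 CPM, and Gpx6, a glutathione peroxidase, at 9.60 ± 1.42, 0.348 ± 0.20 and 0.441 ± 0.15 CPM, in the order untreated wild type, HTT-10150 and NTC.

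**Figure D5:**
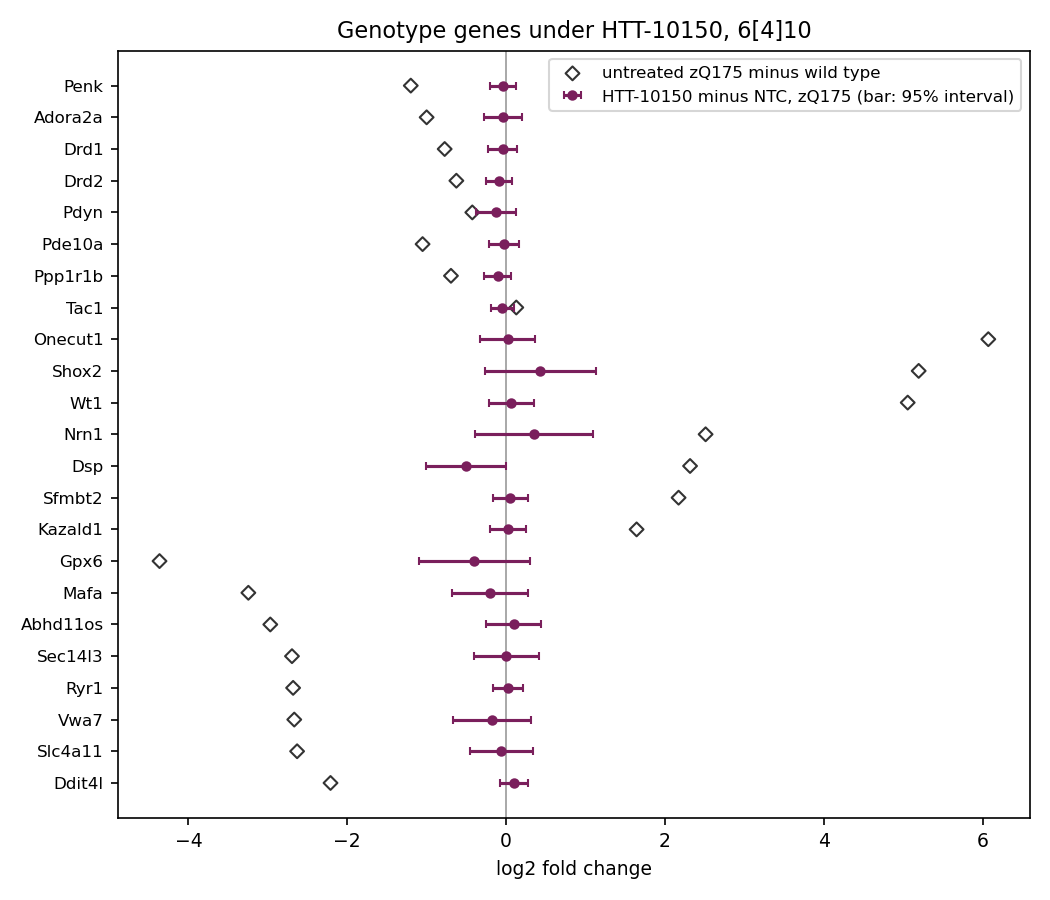
Log2 fold change of HTT-10150 minus NTC in zQ175 6[4]10 (filled, with 95% intervals) beside that of untreated zQ175 minus wild type (diamonds) for 8 medium spiny neuron genes and the 15 genes with the largest genotype difference whose wild-type level is above 0. The filled points cluster around 0, between -0.51 for Dsp and 0.43 for Shox2, while the diamonds reach -4.36 for Gpx6 and 6.07 for Onecut1.

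The effect of HTT-10150 was set against the nearest comparisons of the series by tests of the difference. Wild-type mice of 6[4]10 also had 0 called genes (0%). No gene's effect was called as different between zQ175 and wild type (0 of 15757, 0%, by edgeR and 0 by DESeq2). With edgeR 673 had an unadjusted p under 0.05. Between females and males no gene's effect was called as different either (0% by edgeR, with 552 at an unadjusted p under 0.05, and 0 by DESeq2). For Htt the log2 fold change in zQ175 mice dosed once at 2 months and collected at 6 was -0.0080 ± 0.051, and the effect in 6[4]10 minus that one was -0.31 ± 0.095 (edgeR, adjusted p = 0.60). That schedule, 2[4]6, had 0 of 15716 genes called (0%). No gene's effect was called as different from that in 6[4]10 (0 of 16295, 0%, by edgeR and 0 by DESeq2). With edgeR 814 had an unadjusted p under 0.05. A count of 0 does not show equal effects, since the Htt difference of -0.31 ± 0.095 was not called either.

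Mice of zQ175 dosed at both 2 and 6 months and collected at 10, the 2+6[8]10 schedule, had 490 of 15506 genes called between HTT-10150 and NTC (3.16%), 170 higher and 320 lower. The difference between that effect and the effect in 6[4]10 was called for 3 of 16295 genes by edgeR (0.0184%) and for 33 by DESeq2. Htt was at -0.36 ± 0.06 with both doses (adjusted p = 0.000346 by edgeR), and that effect minus the one in 6[4]10 was -0.045 ± 0.095 (adjusted p = 0.91 by edgeR). Xpr1, a phosphate exporter, was at 131 ± 8.3 CPM with HTT-10150 and 127.0 ± 7.4 with NTC in 6[4]10, a log2 fold change of 0.043 ± 0.043, against -0.19 ± 0.03 with both doses (difference -0.24 ± 0.05, adjusted p = 0.0136 by edgeR). Muc3a, a mucin gene, was at 7.45 ± 1.40 and 8.71 ± 1.36 CPM, or -0.23 ± 0.12, against 0.77 ± 0.18 (difference 1.002 ± 0.21, adjusted p = 0.0323 by edgeR). The long noncoding RNA gene Gm14827 was at 7.10 ± 1.29 and 8.02 ± 0.83 CPM, or -0.18 ± 0.10, against 0.73 ± 0.12 (difference 0.92 ± 0.18, adjusted p = 0.0136 by edgeR). The schedules also differ in cohort, which cannot be told apart from the number of doses.

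The genes called with both doses were then read in the animals of 6[4]10, which are other animals. Leaving out Htt, 489 of the 490 remained, and 0 of them were called. The 319 genes that fell with both doses had a median log2 fold change of 0.019 in 6[4]10, and 69% of them lay above 0, where 49.2% of all genes did. The 170 genes that rose with both doses had a median of -0.0075, and 44.7% lay above 0. Formed into a score as above, they differed by -0.036 between HTT-10150 and NTC in 6[4]10 (exact permutation p = 0.674, n = 8 and 8). NTC male 1 scored -0.797, and the other NTC animals ran from -1.426 to -1.103. The direction of this small difference may rest on NTC male 1, since the score was not compared without it.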

How the data were processed

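Polyadenylated RNA of dissected striatum was sequenced, 1 library per mouse. Per the submitters' processing notes the authors counted reads with RSEM against GRCm38, and the deposited table holds expected counts, which were rounded to whole numbers here (78.2% of nonzero values were whole already). For aligner and annotation: not given in the sources used here. Another deposited table, whose columns share 1 sum, was not used. Of 41135 entries, 7 name no mouse gene and were left out of tests (5.91e-06% of counts). Symbols and positions of 40254 genes came from GENCODE M21.

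Groups came from the labels. The 48 libraries of 6[4]10 were fitted once with edgeR 4.0.16 (TMM, filterByExpr, robust quasi-likelihood F test, sex as a term) in R 4.3.3, and genes were called at a p under 0.05 after Benjamini-Hochberg adjustment. Differences between schedules came from 1 fit of all 143 libraries. Single values were compared by exact two-sided permutation. Standard errors are the fold change over the root of F. Scores used log2 CPM with a prior count of 2.

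The members and the 33 gene lists were chosen with earlier results of these data known. Named genes were Htt, the 10 genes in each direction of smallest unadjusted p that moved alike in females and males at a mean log2 CPM above 1 (none passed), the 2 of smallest p in each list, 10 striatal and glial genes, and the 8 genes in each direction with the largest genotype difference; not all of them are printed. Alternatives were DESeq2 1.42.0, RLE factors, no filter, other sets of libraries, no sex term, blocks, length and GC slopes, untreated controls and leaving out each library. The fits were tested on simulated data.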

Additional observations from a re-analysis of the deposited data

Results flagged for a closer look

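Of 92 sets of 8 animals that were checked, 28 had 1 animal far from the other 7. Chance gives about 1 in 20 for a single set, but these sets share the same animals and many of their genes were named for a small p, so 28 cannot be read against that rate.

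Male 2 of the HTT-10150 group was far below the other 7 in medium spiny neuron genes. It had the lowest level of Drd1 (68.3 CPM), Drd2 (60.4), Penk (270.9), Pdyn (32.1), Tac1 (119.4), Adora2a (80.3), Pde10a (437.9) and Ppp1r1b (854.1), and the lowest summed level of the lists for medium spiny neurons (8689 CPM), the indirect pathway (476.1) and the direct pathway (347.2). It also had the highest genotype signature score (0.443) and the highest level of the ubiquitin ligase gene Pdzrn4 (8.60 CPM). Its Htt level, 108.4 CPM, was the highest of the 4 treated males and below the highest treated female, at 120.2 CPM.

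Female 4 of the NTC group was far above the other 7 in genes of choroid plexus and nearby epithelia. It had the highest level of Slc12a4 (46.8 CPM), Otx2 (23.2), Slc13a4 (32.4), St6galnac2 (12.9), Aqp1 (35.7), Kcnj13 (46.5), Mfrp (99.7), Slc4a5 (49.7) and 1500015O10Rik (50.9), and the highest summed level of the choroid plexus and ependyma list (5509 CPM) and of the fibroblast and meninges list (387.8 CPM). Its summed level of homeostatic microglia genes was the lowest of its group, at 553.1 CPM. In the HTT-10150 group, female 3 had the highest Slc4a5 (1.51 CPM) and male 4 the lowest summed level of mural cell genes (211.1 CPM). In the NTC group, female 2 had the lowest Trmt13 (5.55 CPM).

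The effect of HTT-10150 in zQ175 differed between 2+6[8]10 and 6[4]10 for Xpr1 (-0.24 on the log2 scale), Muc3a (1.002) and Gm14827 (0.92).

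A separate entry for a mutant form of Htt, left out of the tests, held a few expected counts in zQ175 and almost none in wild type. Summed over 8 libraries it had 13.95 in zQ175 with HTT-10150 (95% Poisson interval 7.62 to 23.4, for counting error only), 13.08 with NTC (6.98 to 22.3) and 16.2 without treatment (9.29 to 26.2). In wild type it had 0.133 with NTC and 0 in the other 2 groups of 6[4]10, for which the upper 95% Poisson limits are 3.96 and, in each of the other 2, 3.69 counts. The zQ175 intervals overlap, so no difference between HTT-10150 and NTC was detectable at this depth.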

How the results depend on the processing

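The count of genes called between HTT-10150 and NTC was 0 in each of the 29 alternatives (leaving out HTT-10150 male 2 stands among them both as a planned and as an added one), with 250 to 1066 genes at an unadjusted p under 0.05. The Htt log2 fold change was negative in all of them, from -0.34 to -0.21, the latter against untreated controls, and from -0.34 to -0.28 when each library was left out in turn. With a replicate block within sex it was -0.32, and with a block taken from library names -0.30. Deviations of samples that share a replicate number correlated weakly, from -0.111 to 0.138 over 8 pairs, which cannot exclude a pairing. The replicate block called 0 genes, as every other setting did, so that count does not decide it either. The genotype signature score difference, 0.030, changed sign without HTT-10150 male 2 (-0.0078) and without the 4 libraries that stood apart (-0.022). Against untreated controls it was -0.015, but those untreated animals chose the genes, so that value is no independent check. Left out 1 at a time, libraries gave -0.0078 to 0.043, and no alternative passed. The number of genes whose effect differed between 2+6[8]10 and 6[4]10 was 3 with edgeR and 33 with DESeq2; the cause was not tested. For 108 named genes other than Htt, 3016 of 3126 values kept their direction and none was called; the 110 that changed sign belong to 42 genes. Depth limits the mutant Htt entry, and the number and spread of the animals limit the calls, since Htt at -0.32 was not called.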

Other observations

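Within the 8 animals given HTT-10150, the level of Htt and the genotype signature score gave Pearson's r = 0.144 (exact permutation p = 0.722) and Spearman's rho = 0.357 (exact permutation p = 0.389), and r = 0.0784 without the 2 animals farthest from the median Htt. Within the 8 NTC animals r was -0.844 (exact permutation p = 0.0224, adjusted 0.0448 over both groups) and rho was -0.429 (exact permutation p = 0.299, adjusted 0.389). Without the 2 animals farthest from the median Htt, r in NTC was 0.0389, so that relation rests on those animals. These were the only 2 groups in which the relation was computed.

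Across the 13288 genes with a mean log2 CPM over 1, the log2 fold changes of HTT-10150 in zQ175 6[4]10 had a Spearman correlation of -0.117 with those in wild type of the same schedule, -0.0714 with those in zQ175 of 2+6[8]10 (13287 genes) and 0.0186 with those in zQ175 of 2[4]6, and of 0.149 with the differences between untreated zQ175 and wild type. The corresponding Pearson values were -0.352, -0.129, -0.448 and 0.0435. These 4 comparisons share no animals with it, genes are not independent replicates, and no test was made.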
